A study of Mus musculus with 6 samples.

Results

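Reg1 is one of 6996 genes in the deposited single-cell values of the mouse jejunum, and it was chosen by name from both tables, with its difference between regions already known. The samples were anterior and posterior jejunum from 3 mice of 120 days on a mixed CD-1:C57BL/6 background. Both regions came from each mouse, the anterior one being piece 3 and the posterior one piece 7 of 12 equal pieces. The labels give no genotype, no treatment and no sex, and all 6 samples were EpCAM-positive, DAPI-negative cells from villi and crypts mixed in equal amounts. Single cells also carry a marker label, pos or neg, which is not defined and was not used here. The title of the series concerns ID2 in enteroendocrine differentiation, and no sample is labelled as lacking Id2.

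Reg1 encodes a small secreted C-type lectin-like protein of the regenerating islet-derived family, known from pancreatic acinar cells, regenerating islets and the small intestine. Its relatives Reg3b and Reg3g are secreted by intestinal epithelium as antibacterial lectins. Enterocytes are born in the crypt and move up the villus, and they switch on programmes in turn as they climb. Antimicrobial genes are known from the villus bottom and lipoprotein genes such as Apoa4 from the villus top, so Apoa4 can serve as an axis of position.

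Reg1 (ENSMUSG00000059654) lies on chromosome 6 from 78422711 to 78428667 on the plus strand of GRCm38, in the GENCODE vM21 annotation, which places 0 other genes over it. Reg3b, Reg3d, Reg3a, Reg2 and Reg3g lie beside it within 98.2 kb, and Reg4 lies on chromosome 3. Reg1, Reg3a, Reg3b, Reg3g and Reg4 were in both tables, so 5 of the 7 listed family members were measured, and Reg2 and Reg3d were not analysed here. The Reg1 and Reg2 transcripts were identical at 79.7% of 674 aligned bases, and at 64.4% of the aligned bases of their last 200. The sources used here do not say how reads shared between family members were counted.

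The RefSeq promoter windows of Reg1, Reg3b and Reg3g (GRCm38.p6, 250 bases before and 50 after the transcript start, each printed along its gene) are shown because these 3 neighbours had unlike levels in the 2 regions. Capitals mark TATAAA on either strand.
Reg1, chr6:78425733-78426032, plus strand: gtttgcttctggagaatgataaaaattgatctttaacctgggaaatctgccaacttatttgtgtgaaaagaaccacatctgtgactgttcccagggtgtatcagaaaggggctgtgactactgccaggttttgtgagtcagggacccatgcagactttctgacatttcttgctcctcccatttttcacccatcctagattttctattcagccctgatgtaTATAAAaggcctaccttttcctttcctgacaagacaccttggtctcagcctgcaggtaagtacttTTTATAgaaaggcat
Reg3b, chr6:78370635-78370934, plus strand: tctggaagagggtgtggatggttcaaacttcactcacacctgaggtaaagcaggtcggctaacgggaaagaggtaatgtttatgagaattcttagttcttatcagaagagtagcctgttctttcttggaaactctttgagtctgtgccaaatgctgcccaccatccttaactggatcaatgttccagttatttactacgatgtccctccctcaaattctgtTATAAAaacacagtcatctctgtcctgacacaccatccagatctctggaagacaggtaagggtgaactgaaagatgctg
Reg3g, chr6:78468825-78469124, minus strand: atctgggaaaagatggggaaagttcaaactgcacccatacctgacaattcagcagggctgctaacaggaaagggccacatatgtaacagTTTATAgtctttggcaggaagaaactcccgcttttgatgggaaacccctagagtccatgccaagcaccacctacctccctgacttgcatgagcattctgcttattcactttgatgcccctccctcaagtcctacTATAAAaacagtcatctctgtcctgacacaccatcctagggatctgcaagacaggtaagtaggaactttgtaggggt

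TATAAA began 30 bases before the transcript start in Reg1, 29 bases before it in Reg3b and 27 bases before it in Reg3g. Among the 32851 promoter windows of the reference 13.6% held TATAAA on either strand, as did 4 of the 7 windows of the listed family. GATAA, the core letters that GATA factors recognise, stood 233 bases before the start in Reg1 and on the opposite strand, beginning 152 bases before the start, in Reg3b (25.4% of all windows). TTTATG, the core letters for CDX factors, was found in Reg3b and CAAAGT, those for HNF4 factors, in Reg3g, and neither in Reg1 (11.9% and 14.4% of all windows). TTCNNNGAA was found in Reg3b and not in Reg1 or Reg3g (8.3% of all windows). All 5 motifs were searched on both strands, and their matches did not overlap one another in these windows. The RefSeq start of Reg1 lies 3.27 kb inside the gene span of the other annotation.

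The tables held 2043 cells, 1028 anterior and 1015 posterior, with 198 to 568 cells and 1640578 to 3157105 UMIs (unique molecular identifiers, each standing for 1 captured mRNA molecule) in each sample. Sample medians ran from 2766 to 8689.5 UMIs a cell. The libraries were made with MARS-seq, which sorts single cells into wells. Anterior mouse 1 came from 2 plates, posterior mouse 1 from 3 and each other sample from 1, so plate and mouse cannot be told apart for mice 2 and 3. No plate held cells of both regions, so plate and region cannot be told apart in any mouse. There were 186 well barcodes, 105 of them in every sample, and cells were told apart by plate. The cells fell into 10 clusters when the Reg family was left out. The enterocyte-like ones were clusters 2, 3 and 5, with 880 cells. Goblet-like cells made up clusters 1 and 6, crypt progenitor-like cells cluster 4 and enteroendocrine-like cells cluster 7, while clusters 8, 9 and 10 stayed unnamed. Of the 15 enterocyte markers 10 were raised in cluster 2, 14 in cluster 3 and 4 in cluster 5, which was led by Gm3776, Pycard, Gstm3 and Mgst1. Cluster 5 held 69.6% of the anterior and 71.8% of the posterior enterocyte-like cells of mouse 1, but 4.85% to 14.0% of those in mice 2 and 3, so mouse 1 stood apart in both regions. Mouse 1 also had 233 anterior and 282 posterior goblet-like cells, against 22 to 35 in each sample of mice 2 and 3. The part of the marker label in these differences was not tested. Levels below are UMIs per 10000 UMIs of the cell (CP10K), counted over the 5674 genes present in both tables.

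In anterior enterocyte-like cells Reg1 was abundant and very uneven from cell to cell. Median levels of 0.740, 40.6 and 19.9 CP10K were measured in mice 1, 2 and 3, and its highest cell reached 134, 496 and 510 CP10K in the same mice. The mean lay above the 75th percentile in mouse 1 (9.95 against 6.28 CP10K) and in mouse 3 (49.8 against 49.3 CP10K), and below it in mouse 2 (81.4 against 92.5 CP10K). At least 100 CP10K was found in 51 of the 406 anterior enterocyte-like cells, of which 3 came from mouse 1, 27 from mouse 2 and 21 from mouse 3. The tenth of cells with the most Reg1 UMIs held 74.9%, 52.9% and 74.3% of all Reg1 UMIs of these cells in mice 1, 2 and 3. No Reg1 UMI was counted in 50 of 102, 7 of 121 and 32 of 183 cells. Anterior mouse 1 was thus the low sample by mean, median and share of cells with a UMI.

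Within mouse 1 the plates differed as well. Anterior plate p04 averaged 26.0 CP10K over 20 enterocyte-like cells and plate p03 averaged 6.04 over 82 cells. Mean Apoa4 was 28.5 CP10K on plate p04 and 86.2 on plate p03, and the part of the plate in the Reg1 level was not tested.

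In posterior enterocyte-like cells Reg1 was counted in few cells. The share of cells with a Reg1 UMI was 14.1% in mouse 1 (Wilson 95% interval 7.83% to 24.0%, 71 cells), 3.52% in mouse 2 (1.80% to 6.80%, 227 cells) and 19.3% in mouse 3 (14.2% to 25.8%, 176 cells). These intervals cover counting error only. The posterior samples held 341, 51 and 623 Reg1 UMIs in all their cells, against 1652, 12149 and 11707 in the anterior samples of mice 1, 2 and 3. The 5 cells with the most Reg1 held 52.2%, 88.2% and 86.4% of the posterior Reg1 UMIs. The highest posterior cell, in mouse 3, measured 162 CP10K from 214 Reg1 UMIs, above the highest anterior cell of mouse 1 (134 CP10K). Of the 36 posterior cells with at least 5 Reg1 UMIs, 20 were enterocyte-like and 15 crypt progenitor-like, and 20 came from mouse 1.

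**Figure D1:**
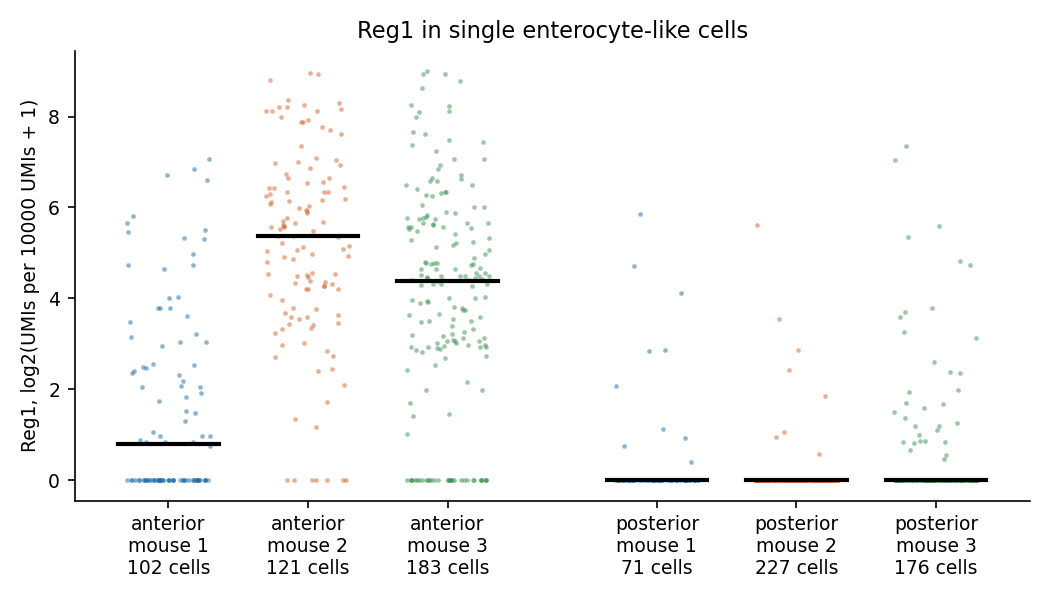
Reg1 in single enterocyte-like cells as log2(UMIs per 10000 UMIs + 1), 1 point per cell, anterior samples on the left and posterior samples on the right, with a black line at the median of each sample. Anterior medians were 0.740, 40.6 and 19.9 CP10K and each posterior median was 0, while single posterior cells reached up to 162 CP10K.

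Enterocyte-like cells measured 9.95, 81.4 and 49.8 CP10K of Reg1 in anterior mice 1, 2 and 3, against 1.66, 0.329 and 2.99 CP10K in posterior mice 1, 2 and 3. Every anterior sample lay above every posterior one. Anterior samples averaged 47.0 ± 35.8 CP10K and posterior samples 1.66 ± 1.33 (SD, n = 3 each), a log2 difference of 4.56 (SE 1.19) on the scale of log2(mean CP10K + 0.2). Within mice 1, 2 and 3 the difference was 2.45, 7.27 and 3.97. It ranked first among 4970 genes ordered by log2 difference, of which 5.92% had all anterior samples above all posterior ones. Reg1 was chosen for this contrast and the regions lay on different plates, so the values are a description and no test was made.

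Crypt progenitor-like cells, the dividing cells that feed the villus, measured 3.69, 8.45 and 12.3 CP10K in anterior mice 1, 2 and 3, against 1.48, 0.789 and 1.67 in the posterior ones. The regions again did not overlap, as was so with the anterior higher for 5.37% of the 4918 genes in this class. The log2 difference was 2.36 (SE 0.57), with 1.21 in mouse 1, 3.13 in mouse 2 and 2.74 in mouse 3. Goblet-like cells, which secrete mucus, measured 2.11, 12.9 and 10.7 CP10K in the anterior samples, against 0.236, 0.205 and 0.0589 in the posterior ones. This gave a log2 difference of 4.27 (SE 0.83), and 4.15% of 4270 genes had the anterior samples wholly above. Enteroendocrine-like cells, the hormone-secreting class, measured 3.5 CP10K in 58 anterior cells of mouse 1 and 0.0180 in its 30 posterior cells, and mice 2 and 3 had under 10 such cells in each region. Reg1 was therefore higher in the anterior sample of each mouse in all 3 classes that could be compared, and how much of the goblet-like level is free RNA from other cells was not tested.

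The order of the classes differed between the regions. In the anterior, enterocyte-like cells led the named classes in every mouse, and progenitor-like and goblet-like cells followed with ranges that overlapped (3.69 to 12.3 and 2.11 to 12.9 CP10K). In the posterior, enterocyte-like and progenitor-like cells had overlapping ranges (0.329 to 2.99 and 0.789 to 1.67 CP10K), and goblet-like cells lay below both (0.0589 to 0.236 CP10K). Enterocyte-like cells held 59.8%, 94.5% and 91.1% of the Reg1 UMIs of anterior mice 1, 2 and 3, and 54.0%, 62.7% and 96.0% of those of posterior mice 1, 2 and 3. The 10 cells of anterior mouse 3 in unnamed cluster 8, which is led by Paneth defensins, averaged 57.0 CP10K from shallow cells (median 766 UMIs), while the 56 cells of anterior mouse 1 in it averaged 3.63. Cluster 9 averaged 17.5 CP10K in anterior mouse 1 (39 cells) and 2.01 in posterior mouse 1 (21 cells).

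**Figure D2:**
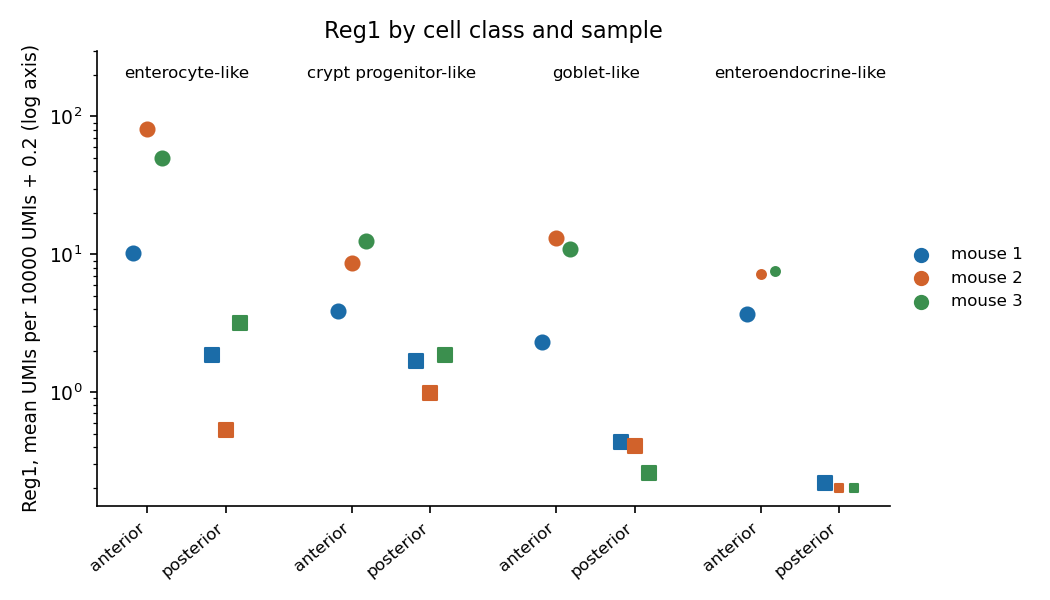
Mean Reg1 level per sample (UMIs per 10000 UMIs + 0.2, log axis) in 4 cell classes, anterior samples as circles left of posterior samples as squares, coloured by mouse, with small symbols for fewer than 10 cells. Anterior enterocyte-like cells measured 9.95 to 81.4 CP10K and anterior goblet-like cells 2.11 to 12.9, and all posterior values lay at or below 2.99 CP10K.

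In anterior mice 2 and 3 Reg1 UMIs were also counted in most cells of other classes. A Reg1 UMI was present in 34 of 35 and 26 of 26 goblet-like cells, and in 7 of 7 and 6 of 6 enteroendocrine-like cells of these mice, the class taken here as one that should lack Reg1. In anterior enterocyte-like cells it was present in 51.0%, 94.2% and 82.5% of cells of mice 1, 2 and 3 (median depths 7981.5, 8977 and 2106 UMIs), and in enteroendocrine-like cells in 24.1%, 100% and 100% (3449.5, 5875 and 5228 UMIs). The shares of mice 2 and 3 were thus at or below those of the enteroendocrine-like cells, so these unthinned shares are not read as shares of cells that express Reg1. Once each cell was thinned to 1000 UMIs, enterocyte-like cells had a Reg1 UMI in 27.8%, 86.0% and 72.8% of cells in anterior mice 1, 2 and 3. Enteroendocrine-like cells had one in 16.4%, 14.3% and 33.3% of 55, 7 and 6 cells. At equal depth the enterocyte-like shares were thus the higher ones, but their Wilson intervals were apart only in mouse 2 (78.4% to 91.2% against 2.57% to 51.3%). They overlapped in mouse 1 (19.9% to 37.5% against 8.86% to 28.3%) and in mouse 3 (65.5% to 79.1% against 9.68% to 70.0%). Thinning left out 5, 7 and 21 anterior and 2, 10 and 14 posterior enterocyte-like cells of mice 1, 2 and 3.

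Fabp1, the fatty acid-binding protein of enterocytes, was set beside Reg1 in each class. In anterior goblet-like cells 70.4, 766 and 716 Reg1 UMIs were counted for every 1000 Fabp1 UMIs in mice 1, 2 and 3, close to the 57.9, 647 and 768 of enterocyte-like cells. Enteroendocrine-like cells had 81.6, 517 and 611. Unnamed cluster 10, led by Sh2d6, had 47.2, 62.5 and 39.9 over 10, 3 and 4 cells, below the enterocyte-like ratio in each mouse. No empty wells were analysed here, and the part of free RNA in the Reg1 level of any class was not tested. Crypt progenitor-like cells had 69.6, 885 and 2198 Reg1 UMIs for every 1000 Fabp1 UMIs in anterior mice 1, 2 and 3, against 57.8, 298 and 676 in the posterior ones. The enterocyte-like ratios in posterior mice 1, 2 and 3 were 13.6, 3.35 and 75.5. The progenitor-like ratio lay above the enterocyte-like one in both regions of all 3 mice. In posterior mice 1, 2 and 3 it rested on 130, 17 and 23 Reg1 UMIs and on 2251, 57 and 34 Fabp1 UMIs. Of these Reg1 UMIs, 1 cell held all 17 in mouse 2 and 1 cell held 19 in mouse 3, so single cells set those 2 ratios.

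Along the villus axis, mean anterior Reg1 was lower in the cells with the most Apoa4 in each mouse. Enterocyte-like cells of a sample were ranked by Apoa4, which encodes apolipoprotein A-IV of lipid-carrying particles, and divided into tertiles. The lower tertile averaged 14.2, 70.0 and 66.3 CP10K of Reg1 in anterior mice 1, 2 and 3, the middle tertile 10.8, 116 and 62.3, and the upper tertile 4.87, 58.3 and 20.6. The highest tertile was the lower one in mice 1 and 3 and the middle one in mouse 2. Median Reg1 fell from 1.83 and 28.7 CP10K in the lower to 0 and 14.5 in the upper tertile of mice 1 and 3. In mouse 2 it rose from 22.2 to 30.7 CP10K, although the highest cell fell from 486 to 279. The share of cells with a Reg1 UMI also rose in mouse 2, from 92.7% to 95%, and from 72.2% to 89.7% in thinned cells. These shares fell in mice 1 and 3, so in mouse 2 only the mean was lower in the upper tertile. Mean Reg1 was 50.2 ± 31.2 CP10K in the lower and 27.9 ± 27.5 in the upper tertile (SD, n = 3). The lower minus upper log2 difference was 1.15 (SE 0.30), with the same sign in 3 of 3 mice. It did not pass limma's test over all 5453 genes (adjusted p = 0.0596), in which Reg1 ranked 165th by p and 144 genes passed (2.64%).

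The call depended on the choices made in ranking and counting. A second axis used the summed level of 11 other villus-tip genes in place of Apoa4. Apoa1 had the highest level of these (506 CP10K in the upper anterior Apoa4 tertile, against 82.7 for Apoc3 and 24.3 for Apob). With cells ranked by this sum, anterior Reg1 averaged 19.0, 74.6 and 81.2 CP10K in the lower tertile and 3.26, 71.8 and 21.3 in the upper tertile. It passed on this axis (log2 1.48, adjusted p = 0.0386 by limma). With cells thinned to 1000 UMIs on the Apoa4 axis it also passed (1.17, adjusted p = 0.0199), and without mouse 2 as well (1.59, adjusted p = 0.0227). It did not pass without mouse 1 (0.97, adjusted p = 0.303), without mouse 3 (0.88, adjusted p = 0.332), with cells split at the median Apoa4 (0.60, adjusted p = 0.364) or with enterocyte-like cells chosen by marker score (0.98, adjusted p = 0.146). The adjusted p over all 14 alternatives ran from 0.0199 to 0.656. Depth and cluster moved along the axis: cells had a median of 9573.5, 6890 and 8802 UMIs in the lower and 6206, 8596 and 1893 in the upper tertile of anterior mice 1, 2 and 3. Cluster 5 made up 94.1%, 39.0% and 31.1% of the lower tertile and 41.2%, 0% and 0% of the upper tertile. The part of the cluster makeup in the Reg1 difference was not tested.

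The enterocyte-like clusters themselves had unlike Reg1 levels. In anterior mice 2 and 3 Reg1 averaged 109 and 95.1 CP10K in cluster 5, 107 and 112 in cluster 3, and 26.8 and 17.5 in cluster 2, the shallow cluster with medians of 1331 and 1490 UMIs per cell. Cluster 5 had the least Apoa4 of the 3 (25.3 and 16.4 CP10K), and cluster 3 had 284 and 217. In mouse 2 cluster 3 had the most Apoa4 of the 3 clusters, and in mouse 3 cluster 2 did, with 407 CP10K. High Reg1 therefore occurred in a cluster of low and in a cluster of higher Apoa4 in both mice. In anterior mouse 1 Reg1 was 13.7 CP10K in cluster 5, 2.31 in cluster 3 and 0.840 in cluster 2.

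Posterior Reg1 was low in every tertile. The lower tertile averaged 2.40, 0.210 and 3.10 CP10K in posterior mice 1, 2 and 3, the middle tertile 2.43, 0.104 and 3.89, and the upper tertile 0.0688, 0.679 and 1.95. Mice 1 and 3 had less Reg1 in the upper than in the lower tertile and mouse 2 had more. The log2 difference of 0.93 (SE 0.69) did not pass limma's test (adjusted p = 0.450, 4934 genes), and without posterior mouse 1 it was -0.24 (adjusted p = 0.852). On the axis of villus-tip genes the lower tertile had 3.73, 0.706 and 6.01 CP10K and the upper tertile 0.0916, 0.0350 and 1.22 in mice 1, 2 and 3, lower in the upper tertile in 3 of 3 mice, and the difference passed (log2 2.61, adjusted p = 0.0121). A few cells set these means, since 8, 10 and 34 cells of mice 2, 1 and 3 had any Reg1 UMI.

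The lower minus upper difference was not shown to differ between the regions. It was 0.22 larger in the anterior on the log2 scale (SE 0.83, adjusted p = 0.996 by limma), and the sign changed under 7 of 17 alternatives. None of the 4970 genes tested passed for this difference of differences (0 called, 0.0%; 240 had an unadjusted p under 0.05).

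**Figure D3:**
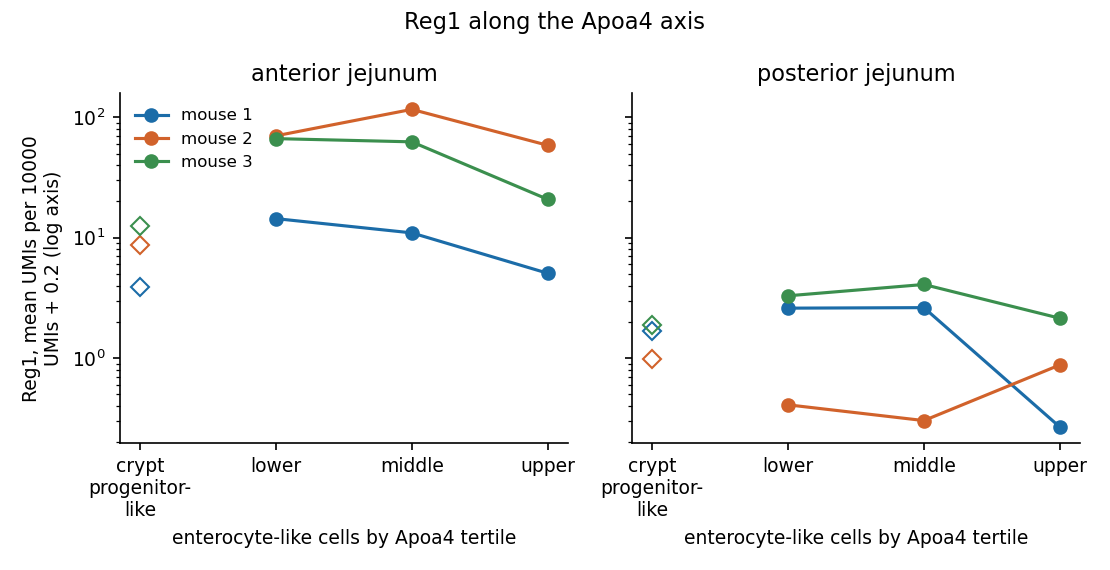
Mean Reg1 (UMIs per 10000 UMIs + 0.2, log axis) in crypt progenitor-like cells (open diamonds) and in the lower, middle and upper Apoa4 tertiles of enterocyte-like cells (joined points), anterior on the left and posterior on the right, 1 colour per mouse. In the anterior, all 3 mice had a lower mean in the upper tertile (4.87 to 58.3 CP10K) than in the lower tertile (14.2 to 70.0 CP10K), and progenitor-like cells lay at 3.69 to 12.3 CP10K.

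Landmark genes of the villus axis were tested in the same fit. Among the 12 villus-tip genes tested in the anterior, 6 were significantly lower in the lower tertile, beside 0.697% of all genes, and 0 higher (median log2 difference -1.66, against 0.10 over all genes). Apoa1, a lipoprotein component, averaged 109 ± 71.0 CP10K in the lower and 506 ± 153 in the upper tertile (SD, n = 3), a log2 difference of -2.53 (SE 0.31, adjusted p = 0.00251 by limma). Ada, adenosine deaminase, differed by -3.53 (SE 0.48, adjusted p = 0.00277) and Krt20, a keratin of mature cells, by -1.62 (adjusted p = 0.0270). Krt20 no longer passed when any 1 anterior mouse was left out (adjusted p 0.0597 to 0.259). Of the 12 villus-middle genes 1 passed, Lct, which encodes lactase, against the same background of 0.697% (-2.14, adjusted p = 0.0198), and it did not pass without anterior mouse 1 or without anterior mouse 3 (adjusted p up to 0.207).

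Among the 11 villus-bottom genes tested in the anterior, 2 were significantly higher in the lower tertile and 0 lower (median log2 difference 0.97, background 1.94% of genes called higher). These were the ribosomal protein genes Rps12 (1.78, SE 0.29, adjusted p = 0.00339) and Rpl3 (2.09, SE 0.39, adjusted p = 0.00937). Rpl3 did not pass without anterior mouse 1 or without anterior mouse 3 (adjusted p up to 0.207). Lypd8, a secreted protein that binds flagellated bacteria, had 26.9, 38.9 and 48.7 CP10K in the lower and 21.1, 16.7 and 14.7 in the upper tertile of mice 1, 2 and 3, with a size like that of Reg1 (log2 1.09, SE 0.30, adjusted p = 0.0740). Of 14 antimicrobial genes 1 passed, Dmbt1, a mucin-like glycoprotein that binds bacteria, with 12.6 ± 2.59 CP10K in the lower and 2.47 ± 0.50 in the upper tertile (log2 2.26, SE 0.35, adjusted p = 0.00297). Dmbt1 did not pass without anterior mouse 1 (adjusted p = 0.0639).

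The other Reg genes had axis profiles of their own. Reg3g averaged 45.1, 45.3 and 93.6 CP10K in the lower and 38.3, 16.4 and 26.3 in the upper tertile of anterior mice 1, 2 and 3, a log2 difference of 1.17 (SE 0.33) that did not pass (adjusted p = 0.0784 by limma). Reg3b differed by 0.82 (SE 0.46, adjusted p = 0.384), and by 1.73 without anterior mouse 1, where it passed (adjusted p = 0.0476), 0.64 without mouse 2 and 0.10 without mouse 3. Reg3a, also a lectin, differed by 0.56 (adjusted p = 0.566) and Reg4, known from enteroendocrine and goblet lineages, by -0.37 (adjusted p = 0.686). None of the 5 family genes passed in the anterior with all 3 mice (0 called, beside 2.64% of all genes). Reg1 and Reg3g had an unadjusted p under 0.05 by limma, as did 940 of all 5453 genes. In the posterior 3 of 5 passed, all higher in the lower tertile, beside 1.62% of all genes called higher, 1.26% called lower and 2.88% called in either direction. Reg3g had 212, 66.3 and 254 CP10K in the lower and 121, 17.2 and 45.3 in the upper tertile of posterior mice 1, 2 and 3 (log2 1.74, SE 0.37, adjusted p = 0.0227). Reg3b differed by 1.68 (adjusted p = 0.0479, higher in the lower tertile in 2 of 3 mice) and Reg3a by 2.02 (adjusted p = 0.0370, 3 of 3 mice). Without posterior mouse 2 or without posterior mouse 3 none of these 3 passed, with adjusted p up to 0.385 for Reg3a and Reg3g and up to 0.490 for Reg3b. Reg4 in the posterior differed by -1.65 (adjusted p = 0.198).

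Between regions, Reg1 and its neighbours Reg3b and Reg3g differed in opposite directions in enterocyte-like cells of mice 1 and 3. Reg3b in enterocyte-like cells measured 76.3, 113 and 80.2 CP10K in anterior mice 1, 2 and 3, against 313, 64.7 and 224 in the posterior ones. Reg3g measured 39.2, 35.4 and 53.8 CP10K, against 165, 34.3 and 127. Both regions overlapped for both genes, and each was higher in the anterior only in mouse 2. The anterior minus posterior log2 difference was -0.90 (SE 0.71) for Reg3b, -1.09 (SE 0.72) for Reg3g and 0.40 (SE 0.65) for Reg3a, against 4.56 for Reg1. Reg4 was higher in the anterior sample of each mouse in enterocyte-like cells (3.71, 1.81 and 2.34 CP10K, against 3.18, 0.830 and 0.0256). In progenitor-like cells Reg4 measured 2.38, 1.35 and 1.36 CP10K in the anterior, against 0.269, 0.0754 and 0.0725 in the posterior samples, a log2 difference of 2.49 (SE 0.36). Posterior mouse 2, the posterior sample with the least Reg1 in enterocyte-like cells, was also the lowest of the posterior samples for Reg3b and Reg3g. No test was made of these region differences, since they share the samples and the contrast by which Reg1 was chosen.

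**Figure D4:**
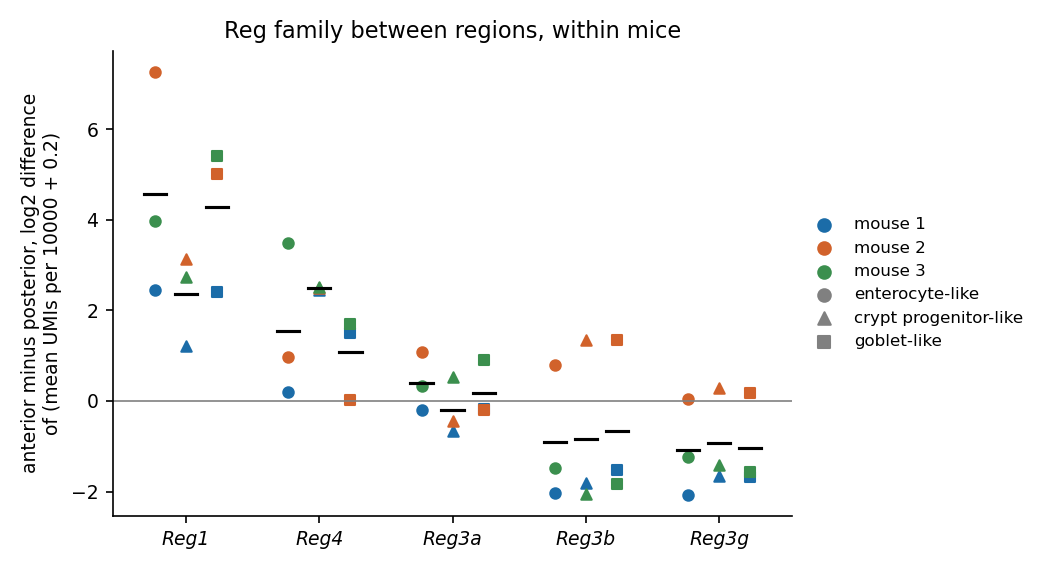
Anterior minus posterior log2 difference of mean UMIs per 10000 + 0.2 within each mouse for the 5 measured Reg genes, in enterocyte-like (circles), crypt progenitor-like (triangles) and goblet-like cells (squares), with a black bar at the mean of 3 mice. All 9 Reg1 points lie above 0, from 1.21 to 7.27, while the Reg3b and Reg3g points lie below 0 in mice 1 and 3 and above 0 in mouse 2.

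Over single anterior enterocyte-like cells, correlations with Reg1 were weak. Pearson r was taken within each sample over 102, 121 and 183 cells of mice 1, 2 and 3 for 3008 genes seen in at least 10% of the cells of each sample, and the values are descriptions with no test. The 10 highest mean r among genes of 1 sign in all mice ran from 0.34 to 0.37. They were Atp5j and Atp5f1 (subunits of ATP synthase), Cox7b (a subunit of cytochrome c oxidase), Chchd10 (a mitochondrial protein), Dbi (which binds acyl-CoA), Txn1 and Prdx1 (thiol antioxidants), Plac8, Zfp706 and the predicted gene Gm12350. Atp5j had r of 0.29, 0.36 and 0.46 in mice 1, 2 and 3, and Cox7b 0.24, 0.46 and 0.39. The 5 lowest were Malat1 (mean r -0.38), a nuclear long non-coding RNA, Gm26917 (-0.32), Zg16 (-0.31), a goblet lectin, Gm42726 (-0.30) and Myo15b (-0.30). Cells within a sample share a library, differ in depth and cluster, and those of shallow cluster 2 had less Reg1. Once cells were thinned to 1000 UMIs (98, 115 and 163 cells), the mean r of these 15 genes shrank to between 0.12 and 0.27 for the highest and between -0.31 and -0.15 for the lowest, and each kept its sign in all 3 mice.

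Among genes of interest by name, Fabp1 ranked 11th of 3008 with r of 0.26, 0.44 and 0.32 in mice 1, 2 and 3. Reg3g (mean r 0.27), Reg3b (0.27) and Reg3a (0.26) ranked 82nd, 92nd and 101st. In mouse 1 their r was 0.14, 0.08 and 0.02, against 0.30 to 0.44 in mice 2 and 3. Apoa4 had r of -0.23, -0.01 and -0.23, so mouse 2 showed almost no linear relation between Reg1 and the axis. Reg4 had r of -0.29, 0.01 and 0.00.

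**Figure D5:**
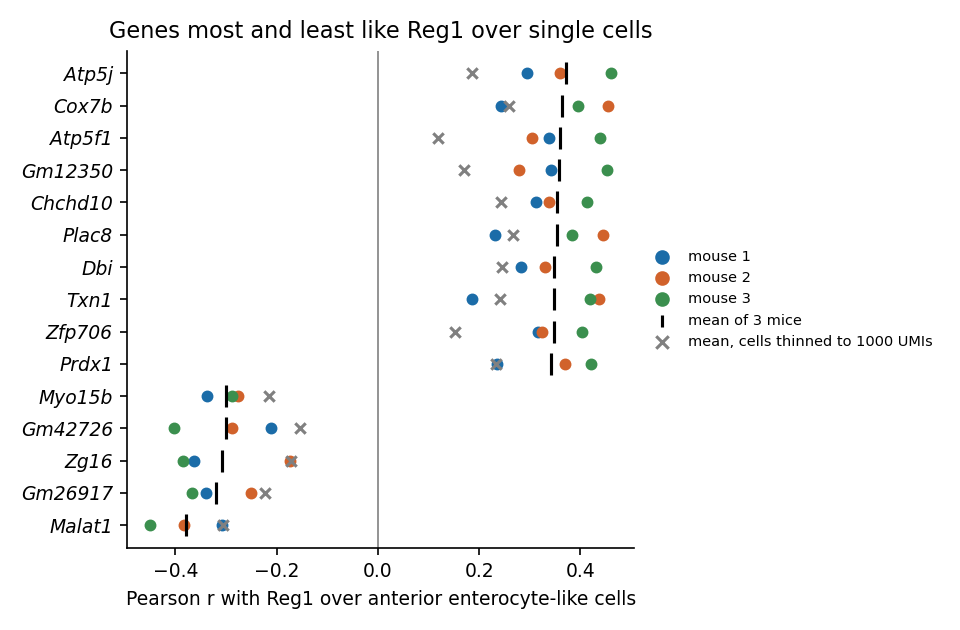
Pearson r with Reg1 over anterior enterocyte-like cells (x axis) for the 10 genes with the highest and the 5 with the lowest mean r (y axis), with 1 point per mouse, a black tick at the mean and a grey cross at the mean after thinning cells to 1000 UMIs. Mean r ran from -0.38 for Malat1 to 0.37 for Atp5j, and all thinned means were closer to 0.

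Over classes, samples and regions together, the profile most like that of Reg1 was that of Fth1, the ferritin heavy chain (r = 0.77 over 27 class-by-sample means on the log2 scale, 5299 genes compared). Fth1 measured 40.4, 78.4 and 48.2 CP10K in anterior and 30.0, 21.6 and 20.0 in posterior enterocyte-like cells of mice 1, 2 and 3. Ckb, a creatine kinase (0.73), Mdh2, a malate dehydrogenase of mitochondria (0.72), and Sco2, a copper chaperone for cytochrome c oxidase (0.70), came next. Class-by-sample means of 1 sample share its library, so these values describe likeness and carry no test.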

How the data were processed

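Single cells of 6 samples were profiled by MARS-seq. The submitters' processing notes list STAR 2.6.1b, cutadapt 1.18, UMI-tools 1.0.0, bcl2fastq and R 3.5.1, and the build GRCm38/mm10. The authors deposited 1 table per region of log2 values, corrected per gene. Undoing the correction returned whole UMI counts for 100.0% of values (tolerance 0.01). Levels are mean CP10K per sample. The number of columns without a sample was 0.

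Cells were clustered with scanpy 1.11.5 (1500 variable genes, 25 components, 15 neighbours, Leiden resolution 1), without the Reg family. A class name needed 3 markers raised by over 1 in log2. Doublets were not called. Of the 3456 wells, 3348 were single-cell wells. Apoa4 tertiles were tested with limma 3.58.1 on log2(mean CP10K + 0.2), with the sample as a block, over genes of at least 0.2 CP10K, Benjamini-Hochberg adjusted (threshold 0.05). Tested on simulated data of the anterior contrast (5437 genes), the fit called 93.5% of 200 genes changed by a log2 of 2. The simulation had no differences between mice and a change larger than that of Reg1 (1.15), so this share does not give the power for Reg1. Samples sharing a number came from 1 mouse, per the labels, and their deviations correlated at 0.52, 0.09 and 0.35. For samples of different mice these correlations ran from -0.48 to 0.33. The gene and the lists were chosen with earlier results of these data known. Named genes were all measured Reg genes, Apoa4, those most like Reg1 by correlation (10 highest, 5 lowest, 5 by class profile) and list members called or with the smallest p; 1 gene named by this rule is not reported here.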

Additional observations from a re-analysis of the deposited data

How the results depend on the processing

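The region difference of Reg1 kept its sign under all 14 alternatives in each class. It ran from 3.83 to 5.62 on the log2 scale in enterocyte-like, 1.88 to 3.15 in crypt progenitor-like and 2.78 to 5.21 in goblet-like cells. With the replicate block, pairing the samples of a mouse, it was 4.56 (SE 1.42), 2.36 (SE 0.58) and 4.27 (SE 0.94). Leaving out 1 sample gave 3.83 to 5.45, 1.99 to 2.83 and 3.81 to 5.06 for the 3 classes. The mean level of posterior goblet-like cells was 0.0420 CP10K after thinning, against 0.167, at a depth where 1 UMI decides it. With summed UMIs anterior levels were 72.7 CP10K in enterocyte-like cells, against 47.0, and 4.03 in goblet-like cells, against 8.58, and the posterior goblet-like level was 0.0902. The thinned posterior goblet-like level moved by more than 1 SD of the mice (0.0946 CP10K). All other levels, those with summed UMIs included, moved by less than 1 SD of the mice, which is wide.

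The anterior lower minus upper difference of Reg1 kept its sign in all 14 alternatives. It passed limma's test after thinning (1.17), on the tip axis (1.48), with summed UMIs (0.98, adjusted p = 0.0226) and with the Reg family kept in the clustering (1.19, adjusted p = 0.0466). Leaving out 1 sample gave 0.88 to 1.59. With no replicate block the adjusted p was 0.656. The number of genes called, 144, became 761 with summed UMIs (143 of the 144 shared), 74 with cells split at the median Apoa4, 29 without both samples of mouse 1, 0 with no replicate block (627 at an unadjusted p under 0.05) and 29 to 133 without 1 sample.

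The posterior difference passed with summed UMIs (1.90, adjusted p = 0.0341) and on the tip axis (2.61). It was -0.24 without both samples of mouse 1, and -0.24 to 1.95 without 1 sample. The difference between regions was -0.020 with a pseudocount of 0.05, -0.92 with summed UMIs, -1.0 with that median split, -1.13 on the tip axis, -1.39 with cells chosen by marker score, and -0.80 to 1.39 without 1 sample. Among other genes the sign changed for anterior Reg3a (-0.13 on the tip axis, -0.27 to 1.179 without 1 sample), anterior Reg4 (0.045 on the tip axis), posterior Reg4 (0.35 by marker score) and anterior Slc2a2 (0.047 by marker score). The cause was not tested. With 3 mice, 1 plate for most samples and few posterior Reg1 UMIs, differences along the posterior axis rest on few cells.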
